A study of Mus musculus with 2 samples.

Results

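Cytosolic ribosomal proteins build the 2 subunits of the ribosome outside mitochondria. Their genes were taken from the array table by symbol: names that start with Rpl or Rps and a digit, with Rpsa, Rplp0, Rplp1 and Rplp2, and without symbols of pseudogenes (-ps) and of the Rps6k kinases. The rule found 50 of 21225 rows. Of these, 21 encode proteins of the large (60S) subunit and 18 proteins of the small (40S) subunit. The remaining 11 rows are paralogs, retrogenes and other names that the rule takes in.

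The small subunit reads the mRNA, and the large subunit joins amino acids and passes the chain through an exit tunnel. Each protein is needed in about the same number of copies, and growing tissue spends much of its transcription on these genes and on ribosomal RNA. In mice and humans, loss of 1 copy of single ribosomal protein genes is known to disturb red blood cell formation and development, as in Diamond-Blackfan anemia.

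The samples were right atria of CD-1 outbred embryos of stage E11.5, dissected with the sinus venosus myocardium and the venous valves. A wildtype pool was compared with a Shox2-/- pool, which lacks the homeodomain factor Shox2 of the sinoatrial node. RNA of 6 right atria from 2 pregnancies was pooled per genotype and hybridized to 1 array each. Embryos without Shox2 are known for an underdeveloped sinus venosus, with the sinoatrial node and venous valves within it, and the size and cell makeup of the dissected pools were not analysed here. In such bulk samples fewer cells of a type and less RNA per cell cannot be told apart. Since each genotype is 1 array, differences carry neither error nor p-value, and the spread among embryos is unknown.

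A value is the log2 expression of a gene on 1 array, and a difference is that on the Shox2-/- array minus that on the wildtype array. The targeted gene Shox2 had a value of 8.43 on the wildtype and 7.48 on the Shox2-/- array. The 10 cardiomyocyte markers listed all lay above the level of olfactory and vomeronasal receptor genes on both arrays. Of these markers 9 were higher on the Shox2-/- array and 1 was lower, where 45.1% of all rows were lower. Their median difference was 0.035, or 0.11 after removal of the trend described below. The receptor level, the 95th percentile of 1291 receptor rows, was 6.78 on the wildtype and 6.97 on the Shox2-/- array and serves as a mark of background signal. All 15 erythroid genes measured were lower on the Shox2-/- array, against 45.1% of all rows. Their median difference was −0.47 (−0.38 after removal of the trend), and the medians of their values, taken on each array separately, were 10.97 and 9.94. All 10 fetal liver genes were lower, against 45.1% of all rows. Their median difference was −0.97 (−0.91 after removal of the trend), and the medians of their values were 8.82 and 7.98. The 15 erythroid genes exceeded the receptor level on both arrays, as did 10 liver genes on the wildtype and 7 on the Shox2-/- array. The part of these cells in the results below was not tested. The difference also depended on the level over all rows: the median was 0.12 in bin 3 of 10 equal bins of mean level, counted from the lowest, and −0.083 in the highest bin. Medians of gene groups are therefore also given with this trend removed by a lowess curve over all rows, as are the differences of many single genes.

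Cytosolic ribosomal protein genes were slightly lower on the Shox2-/- array, with a median close to that of all rows in the highest bin. Of the 50 rows, 34 had a difference below 0, which is 68.0%, where 45.1% of all rows did. Their median difference was −0.095, with quartiles of −0.23 and 0.019. The median over all rows was 0.021. Among all 2123 rows in the highest of the 10 bins, 72.2% were below 0 and the median was −0.083. Of the ribosomal rows, 25 of 50 lay in that bin, of which 19 were below 0 and the median was −0.10. Bin 9 held 6 ribosomal rows with a median of −0.22, against −0.089 over all its rows, and bin 8 held 4 with a median of −0.33, against −0.074. With the trend removed, the median over the 50 rows was −0.027 and 32 were below 0, where 49.4% of all rows were. On that scale 11 of the 50 were at or below −0.2, against 9.8% of all rows. The study's size thresholds were applied without the limit on P that the study also set. By size alone, 3 of the 50 rows were at or below −0.4, against 1.78% of all rows. None was at or above 0.35, against 1.13% of all rows. Those 3 were Rps9, Rps3a3, which RefSeq annotates as a pseudogene, and Rps6, which was below the receptor level on the Shox2-/- array. With the trend removed, Rps3a3 and Rps6 were at or below −0.4, against 1.5% of all rows, and no ribosomal row was at or above 0.35, against 0.952% of all rows.

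**Figure D1:**
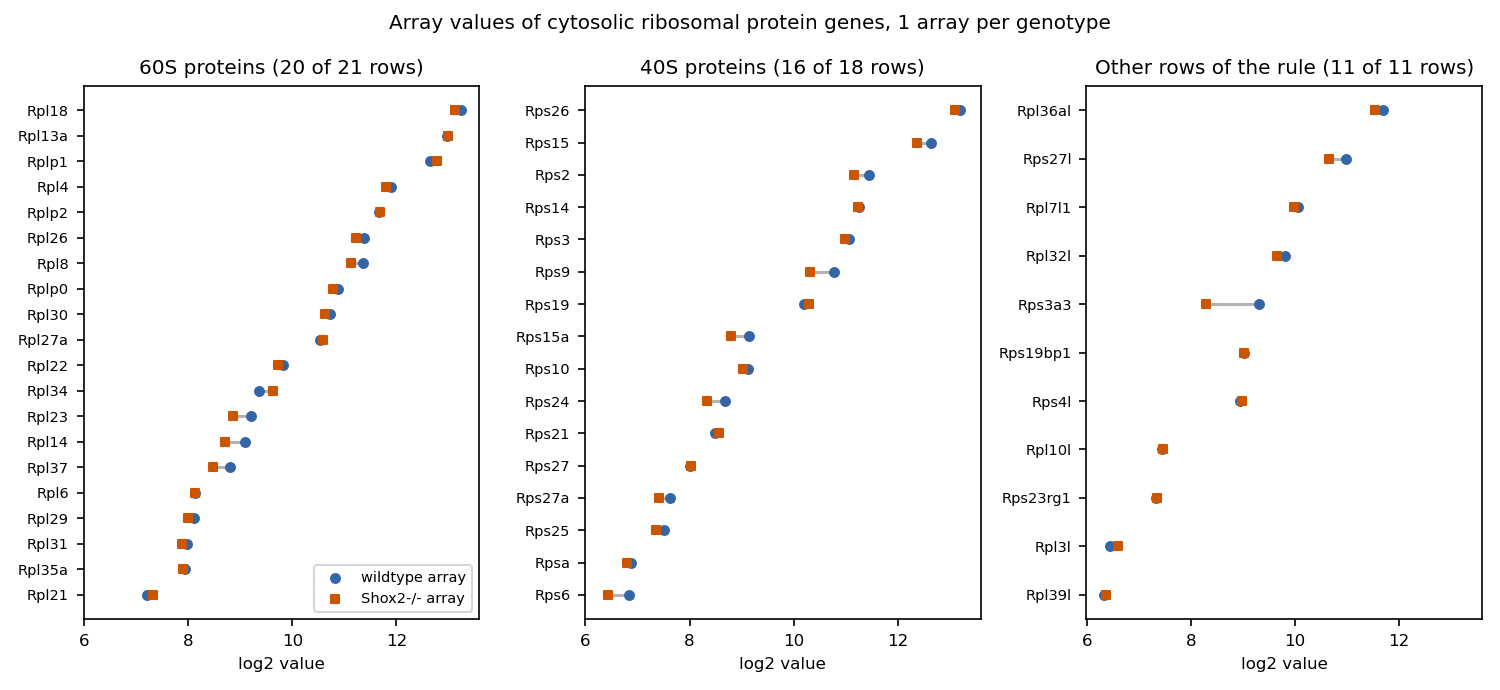
The plot of levels shows the log2 value on the wildtype array (circles) and on the Shox2-/- array (squares) for 47 of the 50 rows, in panels for 60S proteins, 40S proteins and the 11 other rows, ordered by the wildtype value. Most pairs of points nearly coincide, and the widest gap is that of Rps3a3, from 9.32 to 8.28.

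The symbol rule can take 77 of the 80 proteins of the mammalian ribosome, and 39 of these 77 had a row, 21 of 46 in the large and 18 of 31 in the small subunit. The other 38, among them Rpl5 and Rpl11 of the 5S particle and the X-linked genes Rpl10, Rpl36a, Rpl39 and Rps4x, were not analysed here. The 50 rows lay on 18 chromosomes, 10 of them on chromosome 7 and none on the X chromosome. Many ribosomal protein genes have near-identical processed copies in the genome, and how probes shared by a gene and its copies were treated is not given here. The values of different genes come from different probes, so that their order is not an order of RNA amount. On the wildtype array they ran from 6.34 for Rpl39l to 13.25 for Rpl18. Rps6 and Rpsa exceeded the receptor level for wildtype only and were below it for Shox2-/-, so their differences are near background signal, although both proteins are part of every ribosome. Rpl39l and Rpl3l lay below that level on both arrays, and the other 46 rows lay above it on both.

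The promoters of the genes with the 3 lowest and 3 highest differences that had a sequence in the RefSeq table (GRCm38.p6) are shown because mRNAs of ribosomal proteins are known to begin with a terminal oligopyrimidine (TOP) run, which ties their translation to mTOR signalling. Each sequence runs from 50 bases before to 20 bases after an annotated transcription start, and capitals mark the longest run of C and T within 25 bases of the start. Where a gene had several annotated starts, the one with the longest run is printed.
Rps9 (chr7:3703991-3704060, plus strand, difference −0.47): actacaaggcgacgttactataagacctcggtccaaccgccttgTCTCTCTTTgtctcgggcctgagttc
Rps6 (chr4:86857348-86857417, minus strand, difference −0.41): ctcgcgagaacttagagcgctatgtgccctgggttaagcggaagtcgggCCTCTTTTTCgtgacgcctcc
Rpl14 (chr9:120571467-120571536, plus strand, difference −0.39): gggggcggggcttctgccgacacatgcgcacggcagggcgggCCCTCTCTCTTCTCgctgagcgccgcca
Rps21 (chr2:180257329-180257398, plus strand, difference 0.075): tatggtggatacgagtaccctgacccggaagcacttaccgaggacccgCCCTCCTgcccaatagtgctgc
Rps19 (chr7:24884863-24884932, plus strand, difference 0.099): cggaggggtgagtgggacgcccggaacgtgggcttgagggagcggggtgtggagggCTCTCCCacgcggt
Rpl34 (chr3:130730318-130730387, minus strand, difference 0.26): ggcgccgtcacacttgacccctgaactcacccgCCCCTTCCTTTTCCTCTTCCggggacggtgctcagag

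The run was 9 bases long in Rps9, 10 in Rps6 and 14 in Rpl14, and 7 in Rps21, 7 in Rps19 and 20 in Rpl34. Of the 3 high genes, only Rpl34 thus had a run of 8 or more. The 3 low genes had 1 window each, whereas Rps21 and Rpl34 had 2 and Rps19 had 3, among which the longest run was taken. Of the 39 proteins, 29 had 37 promoter windows of 300 bases in the table, and a run of 8 or more was present in 48.6% of these windows, against 19.7% of all 32851 windows. The start base was a C followed by 4 pyrimidines in 21.6%, against 2.51% of all windows. The motif CCGGAAG of ETS factors, searched on both strands, was present in 40.5% of the windows and in 8.86% of all windows. AAGATGGC, a form of the YY1 motif, was present in 18.9% against 2.75%, CTCTTTCC in 24.3% against 3.12% and GGGCGG, the core of the Sp1 motif, in 64.9% against 35.7%. TATAAA of the TATA box was present in 8.11% against 13.6%. Each was searched on both strands, a match is a description of letters only, and the CTCTTTCC motif can overlap the pyrimidine run.

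The median of the 60S proteins was close to that of all rows in the highest bin. Of 21, 13 were below 0, against 45.1% of all rows, and 8 above. The median difference of the 21 was −0.094, or −0.012 with the trend removed. At or below −0.2 were 4, against 11.8% of all rows, and at or above 0.2 were 2, against 11.2% of all rows. The lowest was Rpl14, a protein of the large subunit, with 9.09 on the wildtype and 8.70 on the Shox2-/- array, or a difference of −0.39. Rpl23, which lies at the face toward the small subunit, went from 9.21 to 8.85, a difference of −0.36. Rpl37, a small zinc-binding protein, went from 8.80 to 8.48, a difference of −0.33. These were the only 60S proteins still at or below −0.2 with the trend removed, with values of −0.31, −0.27 and −0.25. Rpl8, which stands beside the site where peptide bonds form, went from 11.36 to 11.12, with a difference of −0.24 that became −0.16 without the trend.

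At the other end, Rpl34 went from 9.37 on the wildtype to 9.62 on the Shox2-/- array, a difference of 0.26. With the trend removed its difference was 0.34, the largest of the 50 rows and still short of the threshold of 0.35. The stalk proteins, which recruit the elongation factors to the large subunit, were divided. Rplp1 was at 12.65 and 12.79, a difference of 0.14, Rplp2 at 11.67 and 11.68, a difference of 0.0083, and Rplp0, to which both bind, at 10.88 and 10.78, a difference of −0.10. Rplp1 reached 0.22 without the trend, while Rplp0 was at −0.024.

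The 3 proteins around the exit tunnel that were measured were all lower by a similar small amount. Rpl26 was at 11.37 and 11.23, a difference of −0.14, Rpl31 at 7.98 and 7.87, a difference of −0.11, and Rpl4 at 11.89 and 11.79, a difference of −0.095. With the trend removed they were at −0.065, −0.071 and −0.017. Rpl18 (−0.12), Rpl29 (−0.11), Rpl22 (−0.094), Rpl30 (−0.093) and Rpl35a (−0.047) lay in the same range, and between −0.060 and −0.011 with the trend removed. Rpl13a, known beyond the ribosome for translational silencing of inflammatory mRNAs, was at 12.98 and 12.99, and Rpl6 at 8.13 on both arrays. Rpl21, at 7.21 and 7.32, had a difference of 0.11, and Rpl27a, at 10.54 and 10.59, one of 0.047. A mutation of Rpl27a is known in mice for effects on skin, cerebellum and growth.

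Of the 18 proteins of the small subunit, 15 were below 0, against 45.1% of all rows, and 3 above. The median difference of the 18 was −0.13, or −0.19 with the trend removed, when 13 were below 0, against 49.4% of all rows. At or below −0.2 were 8 of 18, against 4 of 21 in the large subunit and 11.8% of all rows. None of the 18 was at or above 0.2, against 11.2% of all rows. With the trend removed the counts at or below −0.2 were 6 and 3, where 9.8% of all rows were. The 60S median minus the 40S median was 0.040 as deposited and 0.17 with the trend removed, as the 60S median rose toward 0 and the 40S median fell. With the trend removed, 10 of the 18 proteins lay at or below −0.18 and the other 8 at or above −0.030, so that the median fell at the edge of the lower set. The middle values were those of Rpsa (−0.187) and Rps15 (−0.186). Rpsa and Rps6, both in the lower set, were below the receptor level on the Shox2-/- array. Without them the 2 sets would be of equal size, and the median with the trend removed would lie in the gap between −0.18 and −0.030. Its value was not taken. These proteins are not replicates of each other, and no test of the subunits against each other was made.

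**Figure D2:**
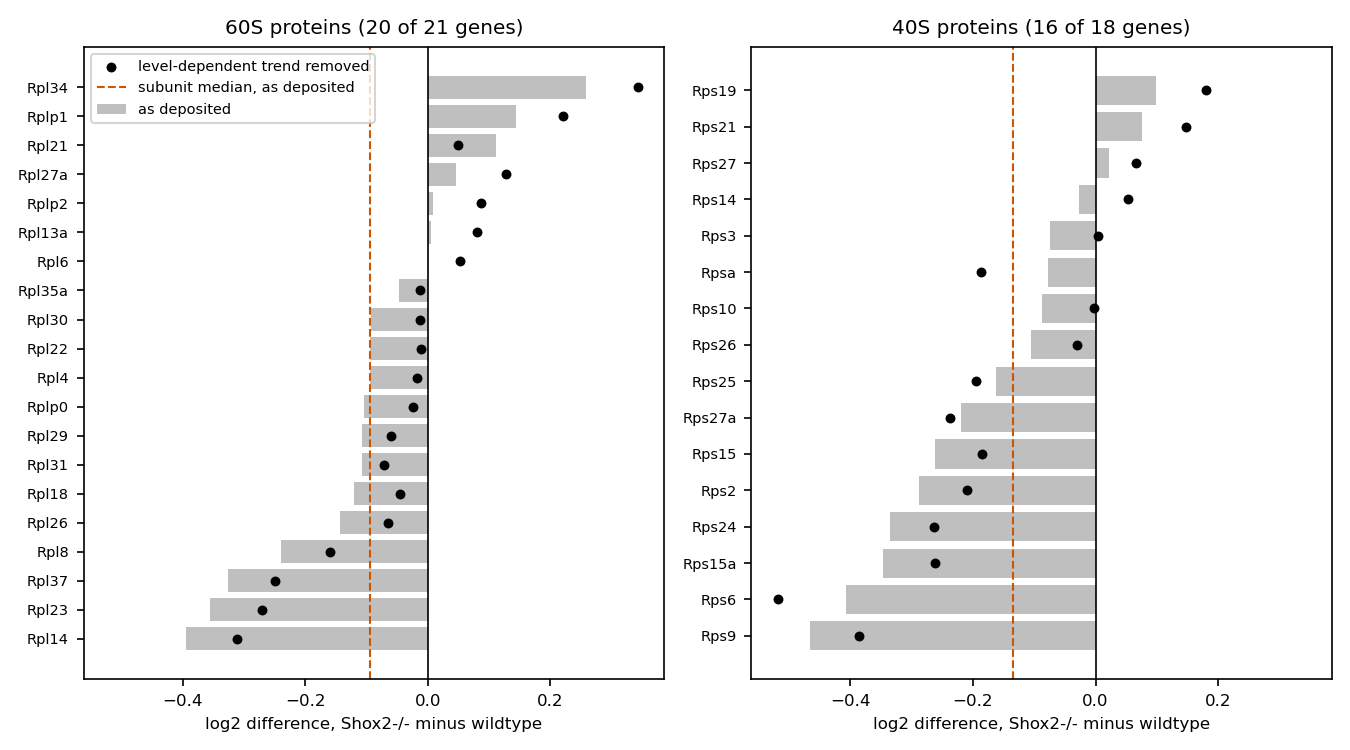
The bars give the log2 difference (Shox2-/- minus wildtype) of 20 of the 21 60S and 16 of the 18 40S protein genes as deposited, black points give it with the level-dependent trend removed, and dashed lines mark the median over all genes of the subunit. The bars run from −0.39 to 0.26 in the 60S panel and from −0.47 to 0.099 in the 40S panel.

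Rps9, which binds the small subunit's RNA early in assembly, had the lowest difference among the proteins of either subunit. It was at 10.77 on the wildtype and 10.31 on the Shox2-/- array, a difference of −0.47 that left 72.4% of the wildtype signal. It stood at rank 213 of 21225 rows from the lowest, and without the trend its difference was −0.39, just short of the threshold. Rps6, the substrate of S6 kinase, was at 6.83 and 6.43, a difference of −0.41 at low signal, or −0.52 without the trend. Rps15a followed, at 9.13 and 8.79 with a difference of −0.35, and Rps24, at 8.67 and 8.34 with a difference of −0.33. Without the trend both were at −0.26.

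Of 5 proteins listed for the mRNA channel and the decoding site, 3 were measured. All were below 0, with a median of −0.26, but without the trend only 2 of the 3 were, and the median was −0.19. Rps2, at the entry of the channel, was at 11.46 and 11.17, a difference of −0.29, or −0.21 without the trend. Rps15, whose tail reaches the decoding site, was at 12.63 and 12.37, a difference of −0.26, or −0.19 without the trend. Rps3, which lies across the channel and also acts in DNA repair, was at 11.06 and 10.99, a difference of −0.074 that became 0.0047 without the trend. Outside this list, Rps27a, made as a fusion with ubiquitin, was at 7.63 and 7.41, a difference of −0.22, or −0.24 without the trend. Rps25, used by viral internal entry sites, was at 7.51 and 7.35, a difference of −0.16, or −0.20 without the trend.

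The other 40S proteins lay nearer to 0. Rps26 (−0.11), Rps10 (−0.088), Rpsa (−0.077) and Rps14 (−0.026) were slightly lower. Without the trend Rpsa, at low signal, was at −0.19, whereas Rps26 was at −0.030, Rps10 at −0.0029 and Rps14 at 0.052. Rps14 is the gene whose loss is tied to the anemia of the 5q- syndrome in humans. Rps27 was at 8.01 and 8.03, a difference of 0.022, and Rps21 at 8.48 and 8.56, one of 0.075. Rps19, the gene most often mutated in Diamond-Blackfan anemia, was at 10.20 and 10.30 and had the highest difference of the small subunit, 0.099, or 0.18 without the trend. In mice a mutation of Rps19 is known to darken the skin. Of 18 genes listed for Diamond-Blackfan anemia, 9 were measured. Rps19 and Rps27 were above 0 and the other 7 below, where 45.1% of all rows were below 0. Rps24 was the lowest, and the median of the 9 was −0.11, or −0.030 without the trend.

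**Figure D3:**
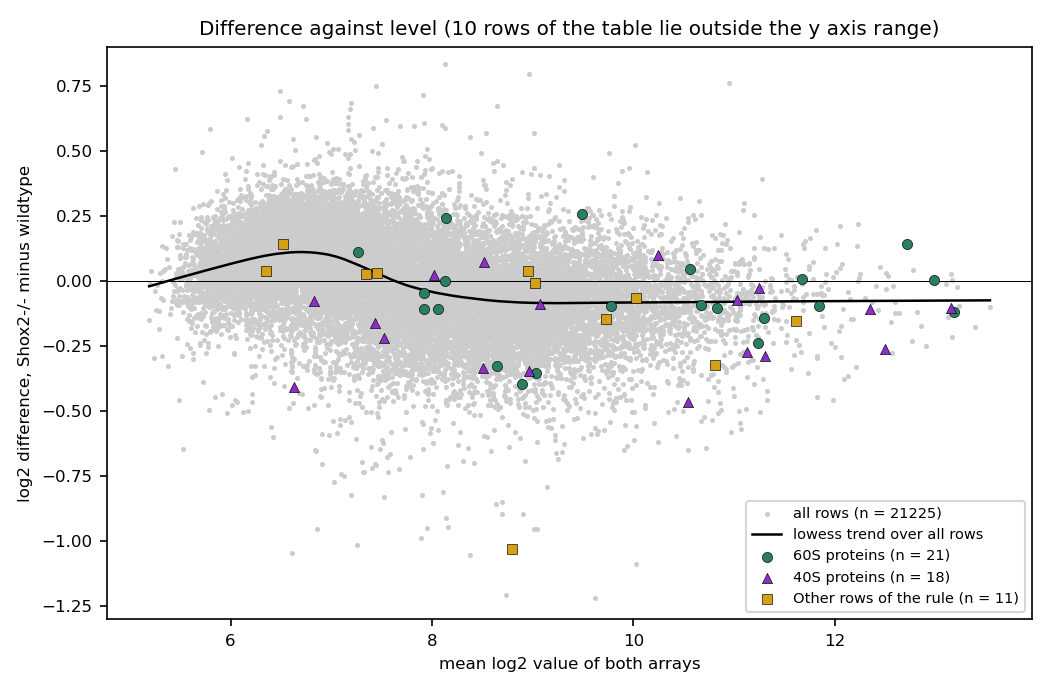
Each row's log2 difference (Shox2-/- minus wildtype) is plotted against its mean log2 value on both arrays, with all 21225 rows in grey, the lowess trend as a line and the ribosomal rows as coloured symbols. The line lies above 0 at low and below 0 at high values, most ribosomal symbols scatter around its right part, and Rps3a3 lies apart at −1.03.

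Of the 11 rows that are not among the subunit lists, 6 were below 0, against 45.1% of all rows. Rps3a3, a copy of the Rps3a gene family that RefSeq annotates as a pseudogene, was at 9.32 on the wildtype and 8.28 on the Shox2-/- array. The difference of −1.03 left 49.0% of the wildtype signal and was the 13th lowest of the 21225 rows. The parent gene Rps3a1 was not analysed here, so that signal of the copy and of its parent could not be set side by side. Rps27l, a paralog of Rps27 that responds to p53, was at 10.97 and 10.65, a difference of −0.32, while Rps27 itself differed by 0.022. Rpl36al, at 11.70 and 11.54, had a difference of −0.15, and Rpl32l, at 9.80 and 9.65, one of −0.15, and without the trend these were −0.077 and −0.063. Rpl7l1 (−0.065) and Rps19bp1 (−0.0082), a nucleolar binding partner of Rps19 that is no ribosomal protein, lay near 0. Rps23rg1 (0.028), Rpl10l (0.030), Rps4l (0.038) and Rpl39l (0.038) did so too. Rpl10l and Rpl39l are known from the testis, and Rps4l is annotated as a transcribed pseudogene. Rpl3l, which replaces Rpl3 in muscle after birth, was at 6.45 and 6.59, below the receptor level on both arrays, with a difference of 0.14, or 0.036 without the trend. Without the 2 rows annotated as pseudogenes, the median of the other 48 was −0.095 and 2 were at or below −0.4.

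Beside the 50 rows stood 13 with symbols of ribosomal protein pseudogenes (-ps). They were divided, with 7 below 0, against 45.1% of all rows, and 6 above. Their median was −0.024, or −0.042 without the trend. Rpl34-ps2 was at 11.56 on the wildtype and 11.10 on the Shox2-/- array, a difference of −0.46, opposite in direction to Rpl34 (0.26). Rps19-ps3, at 8.86 and 8.55, had a difference of −0.31 and was likewise opposite to Rps19 (0.099). Some rows went the same way as the gene. Rpl31-ps21 (−0.27) was lower, as was Rpl31 (−0.11). Rps4l-ps was the highest, at 7.29 and 7.60 with a difference of 0.31, and Rps4l was also above 0 (0.038). Rps18-ps6 was at 13.14 and 13.16. Probes can match a gene and its near-identical copies, so these rows are uncertain as measures of the copy.

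The ribosomal protein Rack1, which the symbol rule leaves out, was at 11.92 and 11.86, a difference of −0.053 that turned to 0.025 without the trend. Of 15 other mRNAs with a TOP run that were measured, 11 were below 0, against 45.1% of all rows. With the trend removed 7 were, against 49.4% of all rows. The median of the 15 was −0.066, which turned to 0.014 with the trend removed. Among them Npm1, a nucleolar chaperone of ribosome assembly, was the lowest, at 11.30 and 10.80 with a difference of −0.50. Eif4b followed with −0.16. Without the trend these were −0.42 and −0.084. Naca, a ribosome-bound partner of the new peptide chain, was the highest, at 8.23 and 8.56 with a difference of 0.33 that reached 0.40 without the trend, past the threshold, and its partner Btf3 had 0.13. The elongation factors Eef1a1 (−0.0031) and Eef2 (0.010) were nearly equal on both arrays. In 10 genes of elongation and termination the median was −0.11, or −0.034 without the trend, from Eif5a (−0.25) and Etf1 (−0.16) to Eef2 and Eef1d (0.022).

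Genes whose products build ribosomes or start translation were below 0 more often than not, as were 66.5% of all rows above the median level, and the groups were not tested against each other. Of 68 genes of ribosome biogenesis, 61 were below 0, and 52 with the trend removed, where 49.4% of all rows were. Their median was −0.16 and, without the trend, −0.077. Brix1, a factor of large subunit assembly, was at 8.96 and 8.44, a difference of −0.52. It and Npm1 were at or below −0.4, against 1.78% of all rows. Rrs1, which helps to bring the 5S particle into the large subunit, was at 7.60 and 8.002. Its difference of 0.40 was past the upper threshold of 0.35, against 1.13% of all rows. Fbl, which methylates ribosomal RNA, had a difference of 0.11. Of 10 genes of RNA polymerase I and its factors, 9 were below 0 (8 without the trend), with a median of −0.15, or −0.080 without the trend. Taf1d (−0.43) and Taf1b (−0.29) were the lowest, and Rrn3 (−0.082) and Taf1c (0.018) the highest. Of 31 translation initiation genes, 29 were below 0 (23 without the trend), with a median of −0.13, or −0.055 without the trend. They ran from Eif2b3 (−0.36) and Eif3g (−0.31) to Eif4g1 (0.013) and Eif4h (0.019).

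Ribosomal proteins of mitochondria, which serve the separate ribosome of that organelle, were close to the cytosolic ones. Of 76, 62 were below 0 (52 without the trend), against 45.1% of all rows (49.4% without the trend). The median of the 76 was −0.12, or −0.047 without the trend. The 48 of the large subunit had a median of −0.13 and the 28 of the small subunit one of −0.080, an order opposite to that of the cytosolic subunits. Mrpl22 was the lowest, at 8.02 and 7.45 with a difference of −0.57, followed by Mrpl47 with −0.48. Mrpl12 and Mrps14, with 0.13 each, were the highest.

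**Figure D4:**
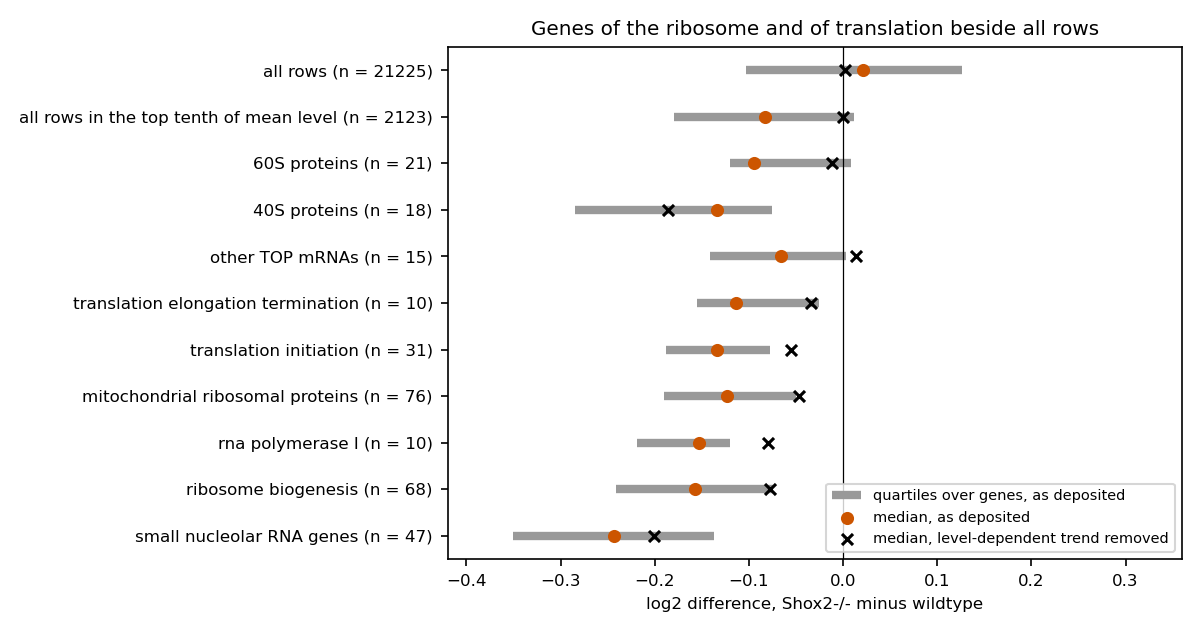
For each group of genes, the bar spans the quartiles of the log2 difference (Shox2-/- minus wildtype) over its genes, the circle is the median as deposited and the cross the median with the level-dependent trend removed. All groups of the ribosome and of translation have a median below 0 as deposited, from −0.066 for other TOP mRNAs to −0.24 for small nucleolar RNA genes, and the crosses lie nearer to 0 for all groups except the 40S proteins.

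Several ribosomal protein genes carry small nucleolar RNAs (snoRNAs) in their introns, which are cut from the host transcript and guide modification of ribosomal RNA. Of 47 snoRNA rows with a symbol, 41 were below 0, against 45.1% of all rows. On removal of the trend 40 were, against 49.4% of all rows. The median of the 47 was −0.24 and changed to −0.20. The span of 6 of the ribosomal protein genes held 10 of them by the RefSeq annotation, in which strand was not given. Of these 10, 8 were below 0 and the median was −0.19, against −0.24 in the other 37. On removal of the trend, 7 of the 10 were below 0 and these medians were −0.11 and −0.22. The pairs that follow are given as deposited. The Rpl13a gene held 4, and all were lower while Rpl13a itself was not. Snord32a was at 11.03 and 10.65, a difference of −0.38, Snord34 at 9.59 and 9.22, one of −0.37, and Snord35a at 10.34 and 10.04, one of −0.30. Snord33, at 9.97 and 9.78, had a difference of −0.19, whereas Rpl13a had 0.0048. In Rpl23 the host was lower, with −0.36 against −0.15 for Snora21. In Rpl4, Snord16a had −0.19 against −0.095 for the host. In Rps3, Snord15a had −0.040 and Snord15b 0.049 against −0.074. Snora62 in Rpsa had 0.018 against −0.077, and Rpsa was below the receptor level on the Shox2-/- array.

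**Figure D5:**
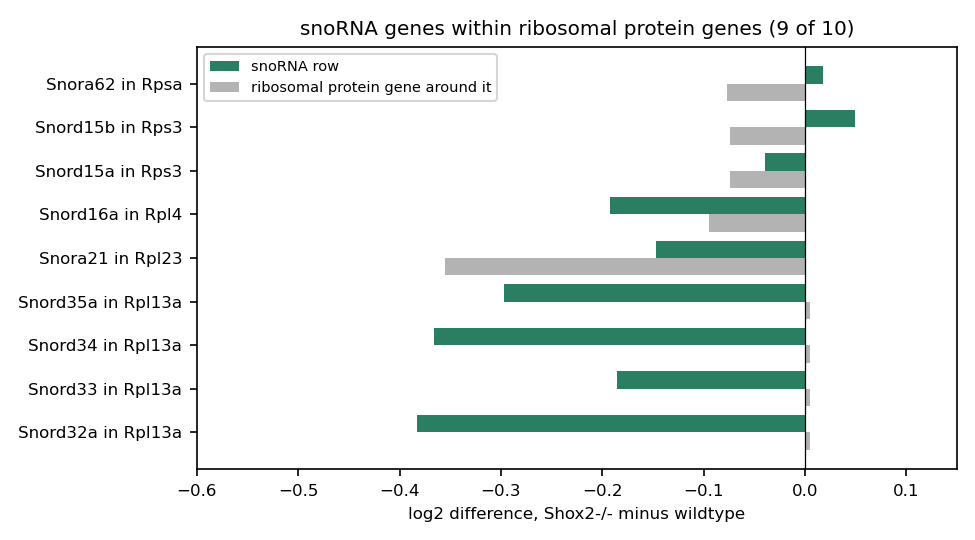
For 9 of the 10 snoRNA rows within a ribosomal protein gene, the green bar gives the log2 difference (Shox2-/- minus wildtype) of the snoRNA and the grey bar that of the gene around it. The 4 snoRNAs in Rpl13a have bars from −0.38 to −0.19 beside a host at 0.0048.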

How the data were processed

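Right atria of wildtype and Shox2-/- embryos at E11.5 were profiled on Affymetrix mouse gene arrays, 1 pool and 1 array per genotype. Per the study's methods, the authors used JMP Genomics to put probe signals on a log scale, equalize their distribution between arrays by quantiles and model them by probe and genotype, with a custom CDF that assigns probes to Entrez genes. The deposited table gives 1 log2 value for each gene on each array. The log base was read from their range of 5.09 to 13.59 and from the study's log2 ratios. For background correction and genome build the sources used here give nothing.

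Symbols came from the platform annotation for 20239 of 21225 rows and were updated by Entrez identifier from RefSeq (GRCm38.p6), which named 529 more, 5 of them ribosomal rows, and left 457 unnamed. Differences were taken as Shox2-/- minus wildtype. No test was made, since 1 array per genotype gives no spread, and precision is limited by this number of arrays. The level-dependent trend was removed with lowess (span 0.3, 3 iterations). The other alternatives were centring on array medians, restriction to rows above the receptor level, to listed proteins or to rows not annotated as pseudogenes, removal of X-linked members, and other thresholds (0.2, 0.4 and 1). Named are members past a threshold, the 8 highest and 8 lowest differences, the 5 highest and 5 lowest levels, members of functional lists, paralogs, and the 2 highest and 2 lowest of each related list. Some rows that this rule takes are not reported here by name and were left out of the plots that name rows, but stay in all counts and medians. The remaining members and pairs were added after their values were seen. The members and lists were chosen with earlier results of these data known. Python 3.11.15, statsmodels 0.14.6, scipy 1.17.1, matplotlib 3.10.9, pandas 2.3.3 and numpy 2.4.6 were used.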

Additional observations from a re-analysis of the deposited data

How the results depend on the processing

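No paired analysis was possible because each genotype has a single array, which also leaves no replicate to omit. No ribosomal row lay on the X chromosome, so the removal of X-linked members changed nothing and gave no separate value. Removing the trend moved the median of the ribosomal rows from −0.095 to −0.027, of the 60S proteins to −0.012, of the 40S proteins to −0.19 and of the 60S minus the 40S median to 0.17. It moved the medians of mitochondrial ribosomal proteins to −0.047, initiation to −0.055, elongation and termination to −0.034, ribosome biogenesis to −0.077 and RNA polymerase I to −0.080, and turned that of other TOP mRNAs to 0.014. The cause was not tested. A threshold of 0.2 gave 14 lower and 2 higher rows, against 11.8% and 11.2% of all rows, and one of 1 gave 1 lower row, Rps3a3, the 13th lowest of all 21225 rows. In an alternative added after seeing the data, annotated pseudogenes were left out and the trend was removed. The median of the ribosomal rows was again −0.027, and 1 row was at or below −0.4. The subunit medians could not change, since neither pseudogene is in the subunit lists. Centring the arrays, the receptor level and the restriction to listed proteins kept the medians within 0.05 and the counts within 1.5 times. Centring could not change the 60S minus the 40S median, and the restriction to listed proteins could not change the subunit medians. The receptor level was applied to the deposited differences only. The 40S median with the trend removed thus includes Rps6 and Rpsa, which were below that level on the Shox2-/- array. For single rows, centring moved none by 0.05 or more and the trend moved 42 of 50; 6 of the 50 changed sign, and none of these 6 was past a threshold.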

Other observations

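The kinase genes of the Rps6k family, whose p70 members phosphorylate Rps6 and which the symbol rule leaves out, were measured in 10 rows. Of these, 6 were below 0, against 45.1% of all rows, and 4 above. The median of the 10 was −0.056, which became −0.022 on removal of the trend. Rps6kb1, the gene of p70 S6 kinase, was the lowest, at 8.73 on the wildtype and 8.48 on the Shox2-/- array. Its difference was −0.25, or −0.17 without the trend. Rps6kb2, its close relative, was at 8.65 and 8.53, a difference of −0.12. Rps6kl1 was the highest, at 7.36 and 7.46 with a difference of 0.10. Of 37 snoRNA rows outside ribosomal protein genes, 33 were below 0, against 45.1% of all rows. Snord47 was the lowest of the 37, at 9.56 and 8.90 with a difference of −0.66.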
